A study of Schizosaccharomyces pombe with 6 samples.

Results

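The 10 long noncoding RNAs (lncRNAs) described here are SPNCRNA.935, SPNCRNA.934, SPNCRNA.577, SPNCRNA.130 (*omt3*), SPNCRNA.1695, SPNCRNA.1086, SPNCRNA.1318, SPNCRNA.1319, SPNCRNA.293, and SPNCRNA.291, out of 1527 features of fission yeast with an SPNCRNA identifier and 6988 features in all in the count table. They were chosen by their measured difference between mutant and wild-type cells in these same 6 libraries, so their own values are given as a description, with no test. All 10 passed the low-count filter, as did 944 of the SPNCRNA features.

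Polyadenylated transcripts of *Schizosaccharomyces pombe* were sequenced in an *asp1-H397A aps1*∆ *siw14*∆ *spx1*∆ mutant and in the wild-type, where the question was how gene expression stands in cells without inositol pyrophosphatase activity once Spx1 is removed too. The mutant carries *asp1-H397A::natMX*, a phosphatase-dead allele of a kinase-pyrophosphatase, with *aps1*∆*::kanMX*, *siw14*∆*::hygMX*, and *spx1*∆*::ura4MX*, which remove 2 further pyrophosphatases and the SPX-domain E3 ligase Spx1. Both strains were haploid, labelled *h-*, and grown vegetatively to log phase at 30°C in ePMGT medium, with 3 biological replicate cultures each. The study's strain list gives this mutant genotype as *h+*, and gives its strains a background of *leu1*, *ura4*, *his3*, and *ade6* alleles. The *ura4MX* marker makes the strains differ in *ura4*, which had counts in the mutant libraries only. The part of this marker in any difference cannot be told apart from that of the other alleles.

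Fission yeast transcribes lncRNAs from many places between and across its genes, and several of them act through the act of transcription: when RNA polymerase II reads through a flanking promoter, that gene is repressed, as at the phosphate-regulated genes *pho1* and *tgp1*. Where a lncRNA ends depends on the cleavage and polyadenylation machinery and its termination factors, and inositol pyrophosphates are known in this yeast to promote termination at the lncRNAs of these phosphate genes. Many lncRNAs are also short-lived, because the nuclear exosome and the RNA-binding protein Mmi1 remove them during vegetative growth.

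Total counts were 20305111 to 22690741 in the mutant libraries and 16593476 to 21436751 in the wild-type libraries, and libraries of 1 strain differed by more than sampling noise (chi-square over its degrees of freedom from 5.965 to 66.26, largest between wild-type replicates 1 and 3). The deleted *aps1* and *siw14* were low in every mutant library. *aps1* had 307 to 330 counts in mutant libraries and 3083 to 3657 in wild-type libraries, and *siw14* had 70 to 107 against 1925 to 2666. *spx1*, also labelled as deleted, was lower but kept many reads, with 1915 to 2369 counts in the mutant and 4524 to 6452 in the wild-type. How far its gene model reaches past the deletion was not examined. The marker *ura4* had 8309 to 9631 counts in the mutant and 0 in each wild-type library. *asp1* carries a point mutation, which counts cannot show, and had 927 to 1034 counts in mutant and 1199 to 1417 in wild-type libraries. The counting kept the strands apart: of 75 lncRNAs wholly inside an exon on the opposite strand of a coding gene with a mean count of at least 100, 1 was at 0 in all libraries, and their median read density was 0.0314 of the host's. All 6 lncRNAs wholly inside an exon of the same strand were at 0. These are bulk samples, in which fewer expressing cells and less RNA per cell cannot be told apart.

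Of the 10 lncRNAs, 8 were lower and 2 were higher in the mutant. The values here are normalized counts, meaning counts scaled by TMM to the average depth of the 6 libraries, and RPKM for levels per length, with log2 fold changes and standard errors (SE) from edgeR. In all 10 the mutant and wild-type libraries did not overlap, which was so for 37.5% of the 944 SPNCRNA features tested. All 10 were past the study's cutoffs (a change of 2-fold or more with an adjusted p no greater than 0.05, and an average of 100 or more normalized counts in the higher strain). Among SPNCRNA features 2.86% were past them in the lower direction and 0.742% in the higher direction, and among all 5947 features tested 1.72% and 0.37%. Since these differences chose the members, nothing is read from those counts. The 8 lower lncRNAs are those with the largest falls of 27 SPNCRNA features past the cutoffs. SPNCRNA.934 and SPNCRNA.1319 have the largest rises among 7 after SPNCRNA.1144, which lies on the opposite strand of *asp1*, the gene altered with *natMX*, and averaged 2533 normalized counts in the mutant and 16.42 in the wild-type. The member nearest the limit on the lower side was SPNCRNA.291 with a log2 fold change of −1.57, next to SPNCRNA.58 just outside with −1.47. On the higher side SPNCRNA.1319 had 1.73, next to SPNCRNA.1023 with 1.46. The median log2 fold change was −2.0 over the members, −0.20 over SPNCRNA features and 0.002 over all features.

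**Figure D1:**
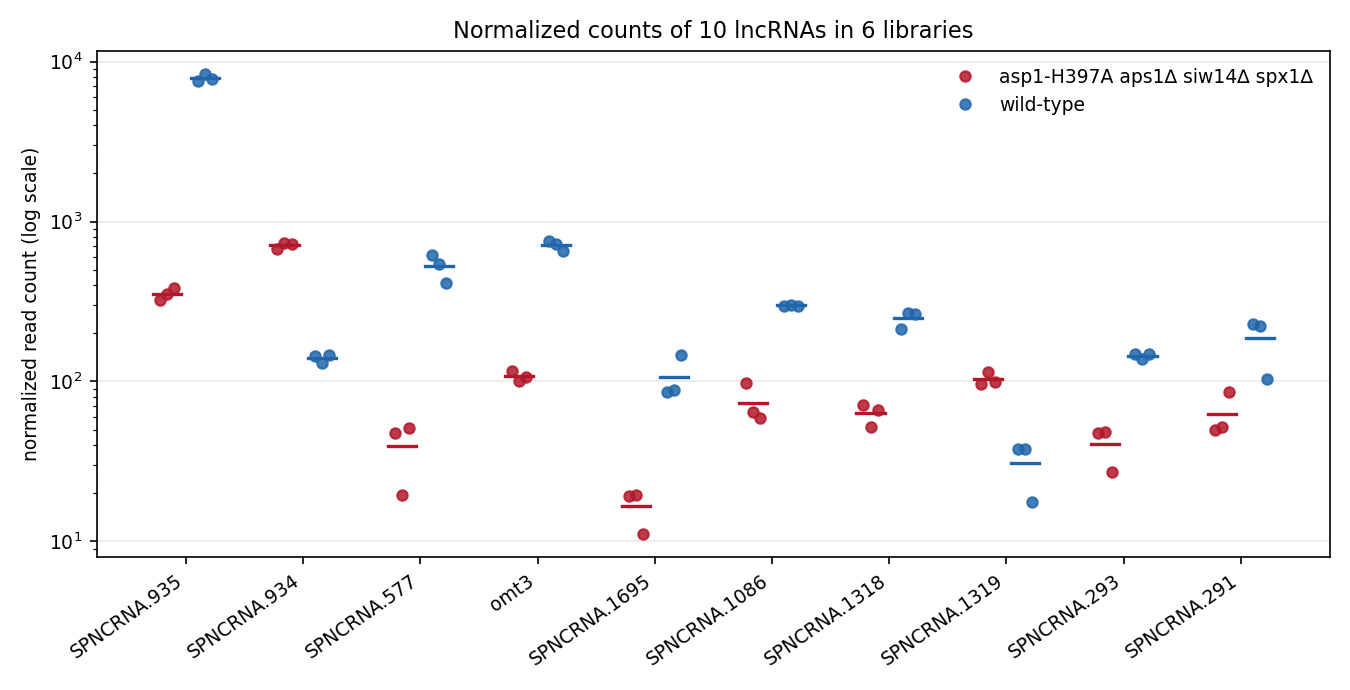
Normalized read counts (log scale) of the 10 lncRNAs in each library. Points are the 3 mutant (red) and 3 wild-type (blue) libraries and lines are their means. SPNCRNA.934 and SPNCRNA.1319 sit higher in the mutant, the other 8 lncRNAs sit lower, and the strains come closest at SPNCRNA.291, where mutant replicate 3 has 85.69 and wild-type replicate 3 has 103.7.

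**Figure D2:**
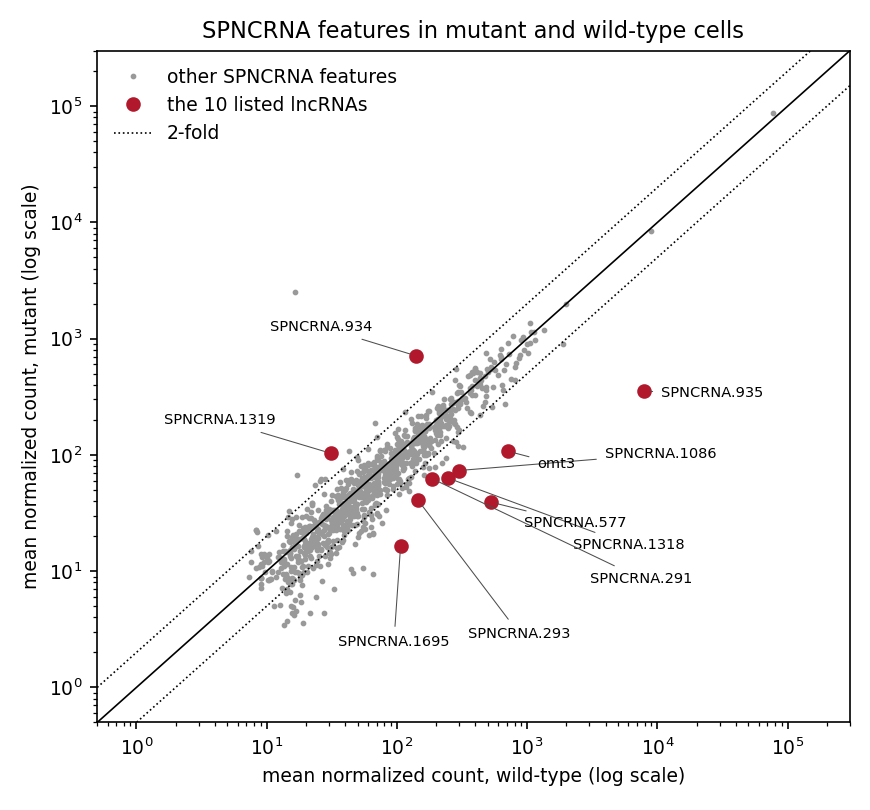
Mean normalized counts of the SPNCRNA features tested, with the mutant on the vertical and the wild-type on the horizontal axis (both log scale). Red points are the 10 lncRNAs, grey points the other SPNCRNA features, the solid line equality, and the dotted lines a 2-fold difference. SPNCRNA.935 lies farthest below the line, with means of 353.5 in the mutant and 7933 in the wild-type, and the lone grey point high above it is SPNCRNA.1144.

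SPNCRNA.935, on chromosome I, had the largest fold difference of the 10. It is annotated as a noncoding RNA and possible alternative UTR, 3056 bases long, on the same strand as *per1*, an amino acid permease gene that begins 607 bases beyond its end. Mutant replicates 1, 2, and 3 had 323.7, 352.9, and 383.7 normalized counts, and wild-type replicates 1, 2, and 3 had 7567, 8407, and 7825. Every mutant library was far below every wild-type library, and the replicates of each strain lay close together. The means were 353.5 ± 30.0 in the mutant and 7933 ± 430 in the wild-type (SD, n = 3 each), for a log2 fold change of −4.49 (SE 0.11), or 22.4-fold lower. Per length, it had 5.64 RPKM in the mutant and 127 RPKM in the wild-type, where it was 152nd and 2nd of the 936 SPNCRNA features with a known length. It took 0.155% to 0.184% of all SPNCRNA reads in mutant libraries and 3.58% to 3.99% in wild-type libraries.

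SPNCRNA.934 runs across the same DNA on the opposite strand, with 2818 shared bases that make up 99.5% of SPNCRNA.934 and 92.2% of SPNCRNA.935. It moved the other way. It had 676.6, 738.5, and 720.9 normalized counts in mutant replicates 1, 2, and 3, against 144.7, 131.4, and 145.6 in wild-type replicates 1, 2, and 3. The means were 712.0 ± 31.9 in the mutant and 140.6 ± 7.95 in the wild-type (SD, n = 3 each), for a log2 fold change of 2.34 (SE 0.15). It was the 50th SPNCRNA feature by RPKM in the mutant (12.3 RPKM) and the 457th in the wild-type (2.42 RPKM). Of the reads of both strands, SPNCRNA.935 held 33.1% ± 1.4 in the mutant and 98.3% ± 0.21 in the wild-type (SD, n = 3 each). So the strand with more reads was SPNCRNA.934 in every mutant library and SPNCRNA.935 in every wild-type library.

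The flanking genes of this pair are *rpl1002*, for a protein of the large ribosomal subunit, and *per1*. *per1* had 1497, 1653, and 1943 normalized counts in the mutant libraries and 3829, 4080, and 3864 in the wild-type libraries. It was lower as SPNCRNA.935 was, and fell by 1.21 on the log2 scale (SE 0.11, adjusted p = 3.1e-05 by edgeR's quasi-likelihood test with Benjamini-Hochberg adjustment). *rpl1002*, which lies on the other side, had a log2 fold change of 0.03 (SE 0.11, adjusted p = 0.888 by edgeR), and this sign turned when wild-type replicate 1 was left out.

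SPNCRNA.577, on chromosome II, is 3410 bases long, and 3115 of them (91.3%) lie opposite SPBC1652.02, a gene of the APC family of amino acid transporters. Mutant replicates 1, 2, and 3 had 47.29, 19.43, and 51.23 normalized counts, and wild-type replicates 1, 2, and 3 had 617.7, 540.8, and 414.9. All mutant libraries were an order of magnitude lower, with mutant replicate 2 lowest, from 19 counts. The means were 39.32 ± 17.3 in the mutant and 524.4 ± 102 in the wild-type (SD, n = 3 each), for a log2 fold change of −3.72 (SE 0.29), or 13.2-fold lower. SPBC1652.02 was higher in the mutant, by much less. It had 4048, 4381, and 4192 normalized counts in mutant libraries and 3078, 3118, and 3244 in wild-type libraries, a log2 fold change of 0.42 (SE 0.09, adjusted p = 0.00907 by edgeR with Benjamini-Hochberg adjustment). It was under the 2-fold cutoff. It was also not past an adjusted p of 0.05 in 3 of the 6 fits that left out 1 library (without mutant replicate 2, mutant replicate 3, or wild-type replicate 2), although the log2 fold change stayed at 0.39 to 0.45. SPNCRNA.577 made up 0.934% ± 0.43 of the reads of both genes in the mutant and 14.3% ± 2.7 in the wild-type (SD, n = 3 each). The genes on either side were not past an adjusted p of 0.05: *stb3*, for a DNA-binding transcription factor, had a log2 fold change of 0.17 (SE 0.12, adjusted p = 0.435 by edgeR), and *eaf7*, for a subunit of the NuA4 histone acetyltransferase, 0.25 (SE 0.22, adjusted p = 0.535 by edgeR).

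*omt3* (SPNCRNA.130) is the only member with a gene name. It is annotated as a lncRNA of meiotic foci of Smp proteins, which are factors of 3′ processing and transcription termination that gather at certain lncRNA loci when homologous chromosomes pair in meiosis. It is 1001 bases long and lies on chromosome I between *mei2*, for the RNA-binding protein that drives entry into meiosis, and *omt2*. It had 115.5, 101.3, and 106.2 normalized counts in mutant replicates 1, 2, and 3, and 761.2, 726.6, and 652.1 in wild-type replicates 1, 2, and 3. Both strains' replicates were tight and did not overlap. The means were 107.6 ± 7.23 in the mutant and 713.3 ± 55.8 in the wild-type (SD, n = 3 each), for a log2 fold change of −2.73 (SE 0.16). Per length it was the 10th SPNCRNA feature in the wild-type, at 34.7 RPKM, and the 173rd in the mutant, at 5.24 RPKM.

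*mei2* begins 1044 bases from the start of *omt3* and runs away from it on the opposite strand. It had 498.3, 484.8, and 742.3 normalized counts in the mutant libraries and 2238, 2321, and 2473 in the wild-type libraries, and fell by 2.03 on the log2 scale (SE 0.16, adjusted p = 9.25e-06 by edgeR's quasi-likelihood test with Benjamini-Hochberg adjustment). *omt2*, for a pterin dehydratase, starts 377 bases beyond the end of *omt3* on the same strand. It had 271.0, 214.8, and 219.8 normalized counts in the mutant and 273.5, 238.5, and 188.7 in the wild-type, a log2 fold change of 0.01 (SE 0.18, adjusted p = 0.977 by edgeR) whose sign turned to −0.04 when libraries were scaled by their totals. Of the 7 meiotic markers tested, *mei2* and *ste11*, for the transcription factor of sexual differentiation, were called lower and no other was past an adjusted p of 0.05. These 7 had summed normalized counts of 980.9 to 1407 in the mutant and 3787 to 3974 in the wild-type, and *rec8* was counted but not tested. Most of these sums came from *mei2* and *ste11*, with wild-type means of 2344 and 1412. The remaining meiotic markers averaged 13.63 to 27.38 in the wild-type, with log2 fold changes of 0.11 to 0.71, so the sums do not describe them. Among markers of M (*h-*) cells, 5 of 7 were lower (adjusted p under 0.05 by edgeR), with summed normalized counts of 3638 to 3815 in the mutant and 6245 to 8917 in the wild-type. Of these, 3 were called lower: *mfm1* (−3.75), *mfm2* (−2.19), and *mam2* (−2.01). *mam3* (−0.12) and *sxa2* (0.05) were not past the threshold. The largest parts of the M sums were *mfm2* and *mam1*, with wild-type means of 3621 and 1942. So the M sums do not describe *mfm1*, which averaged 8.901 in the mutant and 121.0 in the wild-type. Among markers of P (*h+*) cells, 1 of 3 was lower (*map2*). The P sums were 1114 to 1197 in the mutant and 1124 to 1334 in the wild-type. Across the 5947 features tested, the same test and threshold gave 7.03% lower, and 1.72% were called lower. A list of 3 is too short to set against these shares, so nothing is read from *map2*. Every marker of both mating types had counts in every library, and the part of these markers in the difference of *omt3* was not tested.

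SPNCRNA.1695, on chromosome II, is 1451 bases long and shares 875 of them (60.3%) with *fub2*, on the opposite strand, which encodes a protein of the PI31 family of proteasome regulators. It had 19.1, 19.43, and 11.18 normalized counts in mutant replicates 1, 2, and 3, and 85.47, 88.25, and 146.7 in wild-type replicates 1, 2, and 3. It was the least abundant member in the mutant (0.557 RPKM), and wild-type replicate 3 stood above the other wild-type libraries. The means were 16.57 ± 4.67 in the mutant and 106.8 ± 34.6 in the wild-type (SD, n = 3 each), for a log2 fold change of −2.68 (SE 0.31), and −2.39 without wild-type replicate 3. *fub2* was near the limit of detection, with 2 to 6 counts in mutant libraries and 9 to 22 in wild-type libraries. Its log2 fold change was −1.83 (SE 0.49, adjusted p = 0.0328 by edgeR), at levels under the minimum for a call. It was not past an adjusted p of 0.05 under DESeq2, or without mutant replicate 1, mutant replicate 3, or wild-type replicate 2.

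Next to SPNCRNA.1695, 2957 bases before its start, is *nrg1*, annotated as an amino acid permease. It had 1127, 957.4, and 1039 normalized counts in mutant libraries and 4667, 6116, and 7091 in wild-type libraries, and fell by 2.52 on the log2 scale (SE 0.15, adjusted p = 9.28e-07 by edgeR with Benjamini-Hochberg adjustment). On the other side, 4233 bases beyond its end, is *pho1*, for the cell surface acid phosphatase that is the standard reporter of phosphate starvation. *pho1* had 39770, 38380, and 36150 normalized counts in the mutant and 23370, 28250, and 28010 in the wild-type, a log2 fold change of 0.52 (SE 0.10, adjusted p = 0.00773 by edgeR), which is under the 2-fold cutoff.

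SPNCRNA.1086, on chromosome I, is 2131 bases long, is annotated as a possible alternative UTR, and covers all 1130 bases of SPAC1039.08, a serine acetyltransferase gene on the opposite strand. It had 97.3, 64.44, and 58.68 normalized counts in mutant replicates 1, 2, and 3, and 297.4, 302.3, and 296.8 in wild-type replicates 1, 2, and 3. The wild-type libraries were almost equal, and the mutant libraries were lower and more spread. The means were 73.47 ± 20.8 in the mutant and 298.8 ± 3.01 in the wild-type (SD, n = 3 each), for a log2 fold change of −2.02 (SE 0.20). Its share of the reads of both genes was 30.3% ± 5.7 in the mutant and 51.8% ± 3.6 in the wild-type (SD, n = 3 each).

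The 3 neighbours tested around SPNCRNA.1086 were all lower, each with an adjusted p under 0.05. SPAC1039.08 had 167.3, 164.7, and 166.7 normalized counts in mutant libraries and 316.8, 287.3, and 237.2 in wild-type libraries, a log2 fold change of −0.75 (SE 0.16, adjusted p = 0.0122 by edgeR) that was not past the threshold in 4 of the 6 fits without 1 library (each mutant replicate and wild-type replicate 2). SPAC1039.07c, an alanine-glyoxylate transaminase gene 126 bases beyond the end of SPNCRNA.1086 on its strand, fell by 0.63 on the log2 scale (SE 0.11, adjusted p = 0.00294 by edgeR). *isp5*, for an amino acid transporter, starts 686 bases from the start of SPNCRNA.1086 and runs away from it. It had 818.4, 1117, and 1344 normalized counts in mutant libraries and 5598, 7484, and 7388 in wild-type libraries, and fell by 2.64 on the log2 scale (SE 0.18, adjusted p = 2.86e-06 by edgeR with Benjamini-Hochberg adjustment).

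SPNCRNA.1318 and SPNCRNA.1319, on chromosome II, both lie opposite *ght4*, for a hexose transporter, and moved in opposite directions. SPNCRNA.1318 is 2122 bases long and overlaps the start of *ght4* by 871 bases (41.0%) and the end of *mal1*, for the maltase, by 1110 bases (52.3%). It had 70.93, 52.16, and 66.13 normalized counts in mutant replicates 1, 2, and 3, and 214.2, 266.6, and 263.7 in wild-type replicates 1, 2, and 3. Each strain's libraries lay within a narrow range. The means were 63.08 ± 9.75 in the mutant and 248.2 ± 29.4 in the wild-type (SD, n = 3 each), for a log2 fold change of −1.97 (SE 0.19).

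SPNCRNA.1319 is 955 bases long and lies wholly opposite *ght4*. It had 96.39, 114.6, and 99.66 normalized counts in mutant replicates 1, 2, and 3, and 37.61, 37.55, and 17.65 in wild-type replicates 1, 2, and 3. All mutant libraries were higher, and wild-type replicate 3 was the lowest, from 16 counts. The means were 103.5 ± 9.68 in the mutant and 30.94 ± 11.5 in the wild-type (SD, n = 3 each), for a log2 fold change of 1.73 (SE 0.26), and 1.45 without wild-type replicate 3. In the mutant it was higher per length than SPNCRNA.1318 (5.28 against 1.45 RPKM), and in the wild-type it was lower (1.58 against 5.7 RPKM).

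*ght4* itself had 506.5, 353.9, and 352.1 normalized counts in mutant libraries and 1566, 1747, and 1800 in wild-type libraries. It fell by 2.07 on the log2 scale (SE 0.16, adjusted p = 8.63e-06 by edgeR with Benjamini-Hochberg adjustment). SPNCRNA.1318 was lower too, and its share of the reads of both was 13.6% ± 1.9 in the mutant and 12.7% ± 0.61 in the wild-type. The share of SPNCRNA.1319 was 20.9% ± 4.4 in the mutant and 1.81% ± 0.73 in the wild-type (SD, n = 3 each). *mal1* had a log2 fold change of −0.42 (SE 0.13, adjusted p = 0.0684 by edgeR), and the share of SPNCRNA.1318 against it was 7.59% ± 0.85 in the mutant and 19.8% ± 3.8 in the wild-type. Further out, *urh1*, for a uridine ribohydrolase, fell by 2.15 on the log2 scale (SE 0.16, adjusted p = 8.63e-06 by edgeR). *frp1*, for a ferric-chelate reductase, had 3222, 6468, and 7577 normalized counts in the mutant and 12710, 11440, and 13970 in the wild-type, and fell by 1.14 (SE 0.24, adjusted p = 0.00967 by edgeR), but by 0.86, short of the 2-fold cutoff, without mutant replicate 1.

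**Figure D3:**
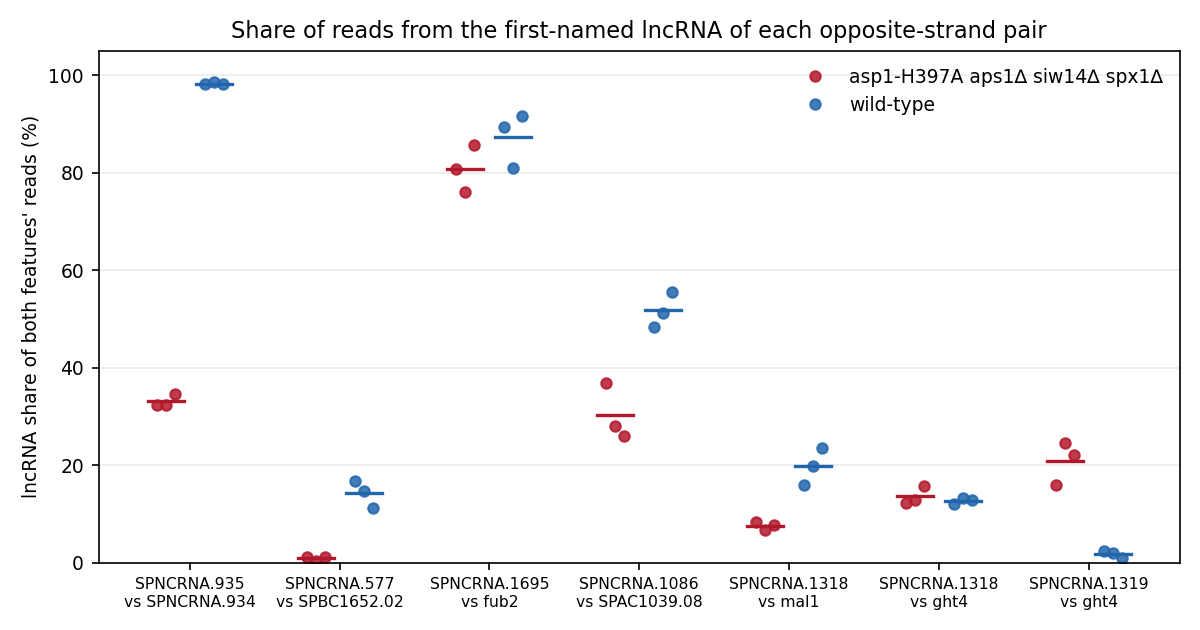
Share of the reads of both features (%) that belonged to the first-named lncRNA, for 7 pairs on opposite strands. Points are the 3 mutant (red) and 3 wild-type (blue) libraries and lines their means. The share of SPNCRNA.935 against SPNCRNA.934 is 33.1% in the mutant and 98.3% in the wild-type, while that of SPNCRNA.1318 against *ght4* is 13.6% in the mutant and 12.7% in the wild-type.

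SPNCRNA.293 and SPNCRNA.291 lie on chromosome II with no counted feature opposite them. SPNCRNA.293 is 1067 bases long and had 47.29, 48.07, and 27.01 normalized counts in mutant replicates 1, 2, and 3, and 149.3, 138.9, and 147.8 in wild-type replicates 1, 2, and 3. The wild-type libraries were close to each other, and mutant replicate 3 was lowest. The means were 40.79 ± 11.9 in the mutant and 145.4 ± 5.6 in the wild-type (SD, n = 3 each), for a log2 fold change of −1.83 (SE 0.23). *pfl7*, for a cell surface glycoprotein, starts 1248 bases away and runs in the other direction. It had 162.8, 138.1, and 184.4 normalized counts in mutant libraries and 500.3, 467.5, and 555.0 in wild-type libraries, and fell by 1.65 on the log2 scale (SE 0.17, adjusted p = 8.55e-05 by edgeR). *abc3*, for a transporter of the ABC family, had a log2 fold change of −0.40 (SE 0.15, adjusted p = 0.112 by edgeR).

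SPNCRNA.291, of 1364 bases, had 50.02, 52.16, and 85.69 normalized counts in mutant replicates 1, 2, and 3, and 230.2, 223.4, and 103.7 in wild-type replicates 1, 2, and 3. Replicate 3 of each strain stood toward the other strain, and the gap between the strains was the narrowest of the 10. The means were 62.62 ± 20.0 in the mutant and 185.8 ± 71.2 in the wild-type (SD, n = 3 each), for a log2 fold change of −1.57 (SE 0.31), and −1.86 without wild-type replicate 3. SPBC359.01, an amino acid permease gene that starts 135 bases from it and runs the other way, had 582.0, 621.9, and 746.1 normalized counts in mutant libraries and 4138, 5274, and 4807 in wild-type libraries. It fell by 2.87 on the log2 scale (SE 0.13, adjusted p = 8.6e-08 by edgeR with Benjamini-Hochberg adjustment), the largest fall among the neighbours tested. SPBPB10D8.07c, the transporter gene on the other side, was counted but did not pass the low-count filter.

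Taking every non-member that overlaps one of the 10 and the nearest protein-coding gene on each side gave 27 features, of which 23 were counted and 20 tested, all 20 protein-coding. Of these, 9 were called lower (SPBC359.01, *isp5*, *nrg1*, *urh1*, *ght4*, *mei2*, *pfl7*, *per1*, and *frp1*), while 0 were called higher by edgeR or DESeq2, with 2 higher at an unadjusted p under 0.05 (SPBC1652.02 and *pho1*). Over all features tested, 1.72% were called lower and 0.37% higher. At an adjusted p of at most 0.05 alone, 12 of the 20 were lower, 2 were higher, and 6 were not past it. For all features tested, those shares were 7.03% lower and 5.33% higher. The loci were chosen because a lncRNA there differed, and some members share neighbours, as SPNCRNA.1318 and SPNCRNA.1319 share *ght4*. So the shares were not compared by a test. The median log2 fold change of the 20 was −0.95. Of them 5 are annotated as amino acid permeases or transporters, and *per1*, *isp5*, *nrg1*, and SPBC359.01 were called lower while SPBC1652.02 was higher at its adjusted p. Within 8000 bases of a member, 59 non-member features were tested, with 28 lower and 4 higher (adjusted p under 0.05 by edgeR) and a median log2 fold change of −0.43. The 14 called lower there were the 9 neighbours and *alr2*, *aat1*, *mmf2*, *say1*, and *mug14*, and the single one called higher was SPAC27D7.09c, near *omt3*. These last 6, and SPNCRNA.933 and SPNCRNA.993, were named after their values were seen. *alr2*, an alanine racemase gene next to SPBC359.01, averaged 569.9 normalized counts in the mutant and 10940 in the wild-type. SPNCRNA.933, on the opposite strand to SPNCRNA.935 and spanning *rpl1002* as its antisense, averaged 9.744 normalized counts in the mutant and 45.96 in the wild-type (log2 fold change −2.21). SPNCRNA.993, between *mei2* and *omt3*, averaged 10.55 in the mutant and 55.31 in the wild-type (log2 fold change −2.39). Both were lower with an adjusted p under 0.05 by edgeR, at levels under the minimum for a call.

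**Figure D4:**
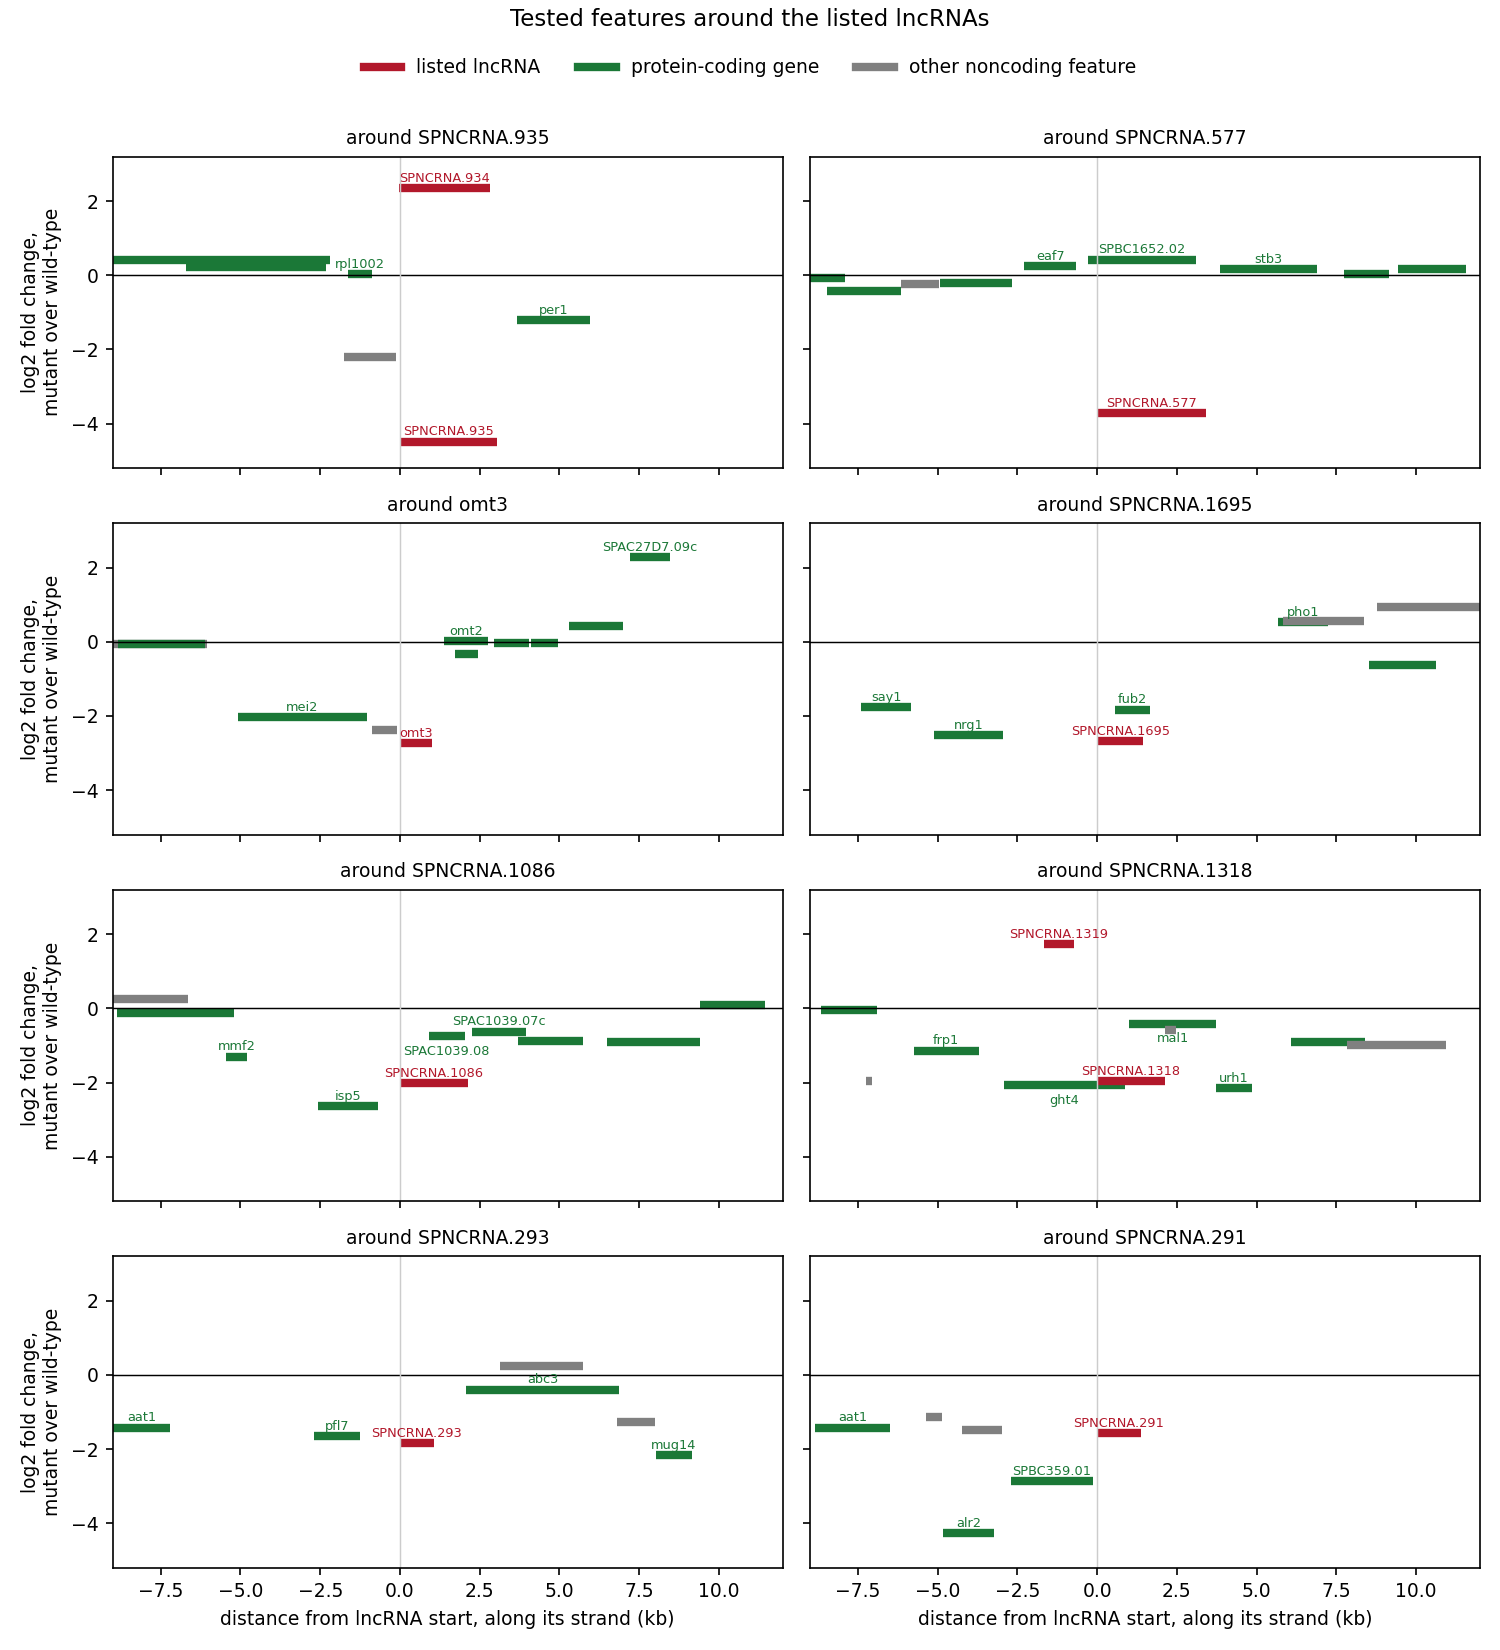
Log2 fold changes, mutant over wild-type, of the features tested around 8 of the lncRNAs, with SPNCRNA.934 and SPNCRNA.1319 shown beside SPNCRNA.935 and SPNCRNA.1318. Bars span each feature by distance from the lncRNA's start in kb along its own strand, in red for the 10 lncRNAs, green for protein-coding genes, and grey for other noncoding features. Around SPNCRNA.577 the coding genes stay near 0, while SPBC359.01 beside SPNCRNA.291 is at −2.87 and *isp5* beside SPNCRNA.1086 at −2.64.

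In 3 of 7 opposite-strand pairs with a member (an overlap of at least 40% of the lncRNA), the partners differed in opposite directions: SPNCRNA.934 and SPNCRNA.935, SPNCRNA.577 and SPBC1652.02, and SPNCRNA.1319 and *ght4*. In 3 others both were lower (SPNCRNA.1086 and SPAC1039.08, SPNCRNA.1318 and *ght4*, SPNCRNA.1695 and *fub2*), and in the pair of SPNCRNA.1318 and *mal1* the coding gene was not past an adjusted p of 0.05. Among 605 such pairs without a member, 5 (0.826%) had partners past it in opposite directions and 10 (1.65%) had both past it in the same direction. Of those 5, *aps1* with SPNCRNA.620 and *asp1* with SPNCRNA.1144 are at altered genes. The members were chosen because they differed, so the 2 sets of pairs were not compared by a test.

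Across the 3 libraries of a strain the 10 lncRNAs had no shared order. After subtracting each strain's mean, correlations of log2(CPM + 1) between members over 6 libraries ran in both signs. They ranged from −1 after rounding (SPNCRNA.1695 and SPNCRNA.291) to 0.79 (SPNCRNA.1319 and SPNCRNA.291), with SPNCRNA.935 and SPNCRNA.934 at 0. The 3 features with the highest correlation to SPNCRNA.935 were SPCC613.02 (Pearson r = 0.984), SPAC31A2.06 (0.984), and SPBC9B6.05c (0.978), over 6 libraries that share their depth and scaling. They were picked as the highest among all features tested, and the top r of each member was 0.982 to 0.999. No likeness is read from these values. By length, the members had a median of 1786.5 bases, against 1314 bases for the SPNCRNA features tested, and 4 lie on chromosome I and 6 on chromosome II.

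Of 69 genes tested for the machinery that ends or removes such RNAs, from lists for 3′ processing and termination, nuclear RNA decay, RNA interference, and cytoplasmic RNA decay, 0 were called by edgeR or by DESeq2, with 15 at an unadjusted p under 0.05 by edgeR. Among all features 1.72% were called lower and 0.37% higher, so a count of 0 in 69 is near the background. The median log2 fold change of the 69 was 0.11, beside 0.002 for all features, and the highest was 0.71. Of the 20 genes for 3′ processing and termination, 3 were higher and 1 was lower by edgeR (adjusted p under 0.05), by less than 2-fold. At that threshold 5.33% of all features tested were higher and 7.03% were lower. By DESeq2, 5 of the 20 were past an adjusted p of 0.05. *seb1*, for an RNA-binding termination factor of RNA polymerase II, had 4418, 4659, and 4407 normalized counts in the mutant and 2732, 2647, and 2848 in the wild-type, and rose by 0.71 on the log2 scale (SE 0.09, adjusted p = 0.000314 by edgeR with Benjamini-Hochberg adjustment). *pcf11*, for a subunit of cleavage factor that binds the polymerase's tail, rose by 0.41 (SE 0.10, adjusted p = 0.0171 by edgeR), and *rna15*, for an RNA-binding cleavage factor subunit, by 0.33 (SE 0.09, adjusted p = 0.032 by edgeR). Nuclear decay had 0 of 24 past an adjusted p of 0.05 by edgeR, 3 at an unadjusted p under 0.05, and 1 by DESeq2. The helicase gene *mtr4*, whose product feeds the exosome, had 3257, 3531, and 3713 normalized counts in the mutant and 3004, 2670, and 1934 in the wild-type. Its log2 fold change was 0.46 (adjusted p = 0.0543 by edgeR). Wild-type replicate 3 was the lowest library for *mtr4*, and also for *chp1* and *ski3*, given below. RNA interference had 0 of 11 by edgeR and 0 by DESeq2, with 1 at an unadjusted p under 0.05 (*chp1*, 0.41, adjusted p = 0.16 by edgeR). Cytoplasmic decay had 0 of 14 by edgeR, 2 at an unadjusted p under 0.05, and 1 by DESeq2 (*ski3*, 0.40, adjusted p = 0.0978 by edgeR).

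Of 9 noncoding RNAs tested from a chosen list, which does not hold every named one, 1 was called lower and 0 were called higher by edgeR (4 at an unadjusted p under 0.05, and 1 called by DESeq2). For the SPNCRNA features tested, 2.86% were called lower and 0.742% higher. The called RNA was *rse1*, a lncRNA upstream of *ste11* that is known to repress it. It had 828.4, 897.0, and 967.7 normalized counts in the mutant and 1712, 1862, and 2096 in the wild-type, and fell by 1.07 on the log2 scale (SE 0.12, adjusted p = 0.000136 by edgeR). *prt2*, a lncRNA of the phosphate-regulated cluster with *pho1*, rose by 0.95 (SE 0.15, adjusted p = 0.00161 by edgeR), under 2-fold. It overlaps *pho84*, for a phosphate transporter, on the same strand, and not *pho1*. *pho84* fell by 0.62 on the log2 scale, with an adjusted p under 0.05 by edgeR. The listed lncRNA that overlaps *pho1* is *nc-pho1*, at 0.56 (SE 0.26), which was not past that threshold (adjusted p = 0.183 by edgeR). Any link of these values to that of *pho1* was not tested. *mrp1*, the RNA of RNase MRP, fell by 0.92 (SE 0.18, adjusted p = 0.00694 by edgeR). *srp7*, the RNA of the signal recognition particle, fell by 1.23 (SE 0.34, adjusted p = 0.0366 by edgeR). Its means were 22.23 in the mutant and 52.7 in the wild-type, too few for a call. Wild-type replicate 1 had 83.19 normalized counts, against 38.49 and 36.41 in wild-type replicates 2 and 3. How far poly(A) selection bears on *mrp1* and *srp7* was not tested.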

How the data were processed

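RNA was isolated from 3 mutant and 3 wild-type cultures, and directional libraries of poly(A)+ RNA were sequenced as paired reads. The authors deposited whole-number counts per feature, made with HISAT2 version 2.1.0 against ASM294v2, SAMtools, and HTSeq version 0.10.0 over exons, per the methods and the submitters' processing notes. Poly(A) selection depletes RNAs without a tail, which are only partly counted. The counting strand, not given in the sources used here, was checked from the counts. A deposited table of the authors' DESeq2 comparison (fold changes, p-values, and mean normalized values) was not used. All count columns matched a sample, with 0 left over. Lengths, biotypes, overlaps, and distances are from ASM294v3, which paired with 6836 of 6988 features by systematic ID. No coordinates or sequences are given, as the builds differ.

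Low counts were removed with filterByExpr, libraries were scaled by TMM, and strains were compared by the quasi-likelihood test (glmQLFTest) in edgeR 4.0.16 under R 4.3.3, adjusted by Benjamini-Hochberg over 5947 features, and the procedure was tested on simulated data. A call took a log2 fold change of 1 or more in size, an adjusted p no greater than 0.05, and an average of 100 or more normalized counts in the higher strain. RPKM was computed from exon lengths. Named were the 10 lncRNAs, features overlapping them, the nearest coding gene on each side, up to 4 genes with the smallest p of each list, the altered genes and marker, and the noncoding features of largest rise and fall. *nc-pho1* and *pho84* were named after their values were seen. The listed *sme2* and mamRNA had no matching ID and are not analysed here. Of the 3′ processing genes, 1 that was lower is counted but not reported here by name or value. Members and lists were chosen with earlier results of these data known. Alternatives were RLE size factors, library totals, no low-count filter, at least 10 counts in every library, DESeq2 version 1.42.0, a replicate block, and leaving out each library.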

Additional observations from a re-analysis of the deposited data

How the results depend on the processing

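Under the 12 alternatives, the 7 counts of calls stayed within 1.5 times of their values: neighbours called lower were 8 to 9 with a library left out, and all features called lower were 100 to 115 and higher 18 to 27. The listed lncRNAs all moved by less than their SD between replicates, with the widest ranges for SPNCRNA.577 (−3.95 to −3.41) and SPNCRNA.291 (−1.86 to −1.39). Of 239 neighbour values, 219 kept direction and side of the threshold, 15 crossed the threshold (in *fub2*, SPAC1039.08, SPBC1652.02, *mal1*, and *abc3*), and 5 changed direction. These were *omt2*, at −0.04 with library totals and −0.12 to 0.14 with a library left out, and *rpl1002*, at −0.07 to 0.13 with a library left out. *fub2* was weaker with DESeq2 and *mal1* passed there (−0.41). The cause was not tested. Scaling by library totals put the median of all features at −0.036.

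With the replicate number as a block, 101 features were called lower and 22 higher, 9 neighbours were lower, and 26 noncoding features were lower and 7 higher. *abc3* passed only in the replicate block (−0.42) and without wild-type replicate 3 (−0.32). The deviations of same-numbered libraries correlated at −0.035, −0.012, and −0.079, and no library correlated best with its own number. No pairing by number was seen, but 3 libraries per strain cannot exclude one. SPNCRNA.577 and SPNCRNA.1695 rest on 19 to 55 and 12 to 21 counts in mutant libraries, so small differences there were not detectable at this depth.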
